A study of Mus musculus with 6 samples.

Results

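Matrix metalloproteinases (MMPs), disintegrin metalloproteinases (ADAMs), their secreted relatives with thrombospondin repeats (ADAMTS), the ADAMTS-like proteins and the tissue inhibitors of metalloproteinases (TIMPs) were examined in cultured muscle stem cells (MuSCs). The genes were taken by symbol, as every row whose name starts with Mmp, Adam, Adamts, Adamtsl or Timp followed by a number. This gave 53 of the 18943 genes in the table, namely 14 MMPs, 14 ADAMs, 16 ADAMTS, 5 ADAMTS-like genes and 4 TIMPs. The study asked how endothelin-3 (ET-3) and neurotensin (NT), peptide ligands of G protein-coupled receptors, act on MuSCs, the Pax7-positive stem cells of skeletal muscle. All 6 libraries came from MuSCs purified by flow cytometry from wild-type (WT) C57BL/6 mice at 8 weeks of age and kept in culture for 5 days. The control cultures received DMSO, the solvent, and the treated cultures received ET-3 or NT, each at 100 nM by the sample labels. The study's methods give higher doses of both ligands. There were 2 libraries per group here, although the series' design text speaks of triplicates, and nothing in the labels says whether they came from separate animals or cultures, so p-values measure only the spread between these libraries, which may be technical.

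MMPs are zinc-dependent enzymes that cleave collagens, gelatin and other matrix proteins, and some of them are anchored in the plasma membrane. Most ADAMs sit in the membrane and cut other proteins off the cell surface, such as growth factors, Notch ligands and receptors, whereas ADAMTS are secreted and cleave proteoglycans such as versican and aggrecan or trim procollagens. The ADAMTS-like proteins share the accessory domains of ADAMTS without the protease domain, and TIMPs bind and block the active enzymes. In muscle these proteins are known for the remodelling of the basal lamina around the fibre, for stem cell movement and for the shedding of surface proteins during myogenic differentiation.

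Each value was a rounded product of a read count and a factor for its library. The 6 libraries held 3629378 to 5396233 reads on genes before scaling, and at a value of 100 the counting error of a single library was 8.84% to 10.9%. The 2 ET-3 libraries differed from each other by less than the sampling noise, with a mean chi-square of 0.862 per gene, and so did the 2 NT libraries (0.926), whereas the 2 DMSO libraries differed by more (1.489). Counts of calls are therefore also given with the 2 libraries of a ligand taken as 1 sample. The cultures carried the defining genes of MuSCs in every library, with Pax7 at 857 and 1070 in DMSO and 1599 to 1754 with the ligands, and Myod1 at 1100 to 1539. Of 7 tested genes of the list for MuSCs and myoblasts, Cdh15 was called lower under both ligands, from 1547 and 1746 to between 436 and 483. Des and Itga7 were lower and Pax7 and Vcam1 higher by less than 2-fold, and Chodl was at 2 to 7 and not tested. All 5 genes of a list of differentiating muscle fell under both ligands, and Myog, which drives differentiation, went from 1157 and 1335 to between 28 and 38. The summed level of 5 markers of pericytes and smooth muscle went from 2370 and 2760 to between 287 and 418, carried by Notch3, Abcc9 and Rgs5, while Myh11 and Kcnj8, the other two of that list, were at 4 or less in every library. In 3 fibroadipogenic markers the sum was 56 and 65 in DMSO and 63 to 89 with the ligands, with Pdgfra at 20 to 44, and in 5 endothelial markers it was 62 and 64 against 98 to 128, carried by Tek (2 and 1 against 42 to 70) while Vwf fell from 38 and 52 to between 13 and 26 and Cdh5 was at 5 or less. In 3 macrophage markers it was 27 and 36 against 34 to 62, in 3 Schwann cell markers 67 in both DMSO libraries against 32 to 69, and no gene of the neutrophil list is in the table. The part of these differences in the results that follow was not tested, and in bulk samples fewer cells of a type and less RNA per cell cannot be told apart.

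Transcripts of TIMPs and of surface ADAMs were the most abundant of the 53, on the scale of value per kilobase (kb) of exon. Timp1 led with a mean level of 511 per kb in DMSO, 501 in ET-3 and 409 in NT. Timp2 followed with 428, 259 and 245, and Adam9 with 206, 193 and 191. Adamts14 (94.3, 214 and 201) and Adam10 (164, 166 and 166) completed the 5 highest levels. The order moved within the ADAMTS: Adamts14 ranked 8 of 53 in DMSO and 3 with either ligand, while Adamts4 ranked 4 in DMSO and 8 with either ligand. Adamts5 went from rank 22 to 38 with both ligands. Values above 0 in all 6 libraries were found for 39 of the 53 genes.

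A mean value of at least 5 was required for the test, and 41 of the 53 passed. Adam4, Adamts17, Adamtsl2, Mmp10 and Mmp28 passed only through the group in which they were highest. A gene was called when limma, after Benjamini-Hochberg adjustment over all 13921 tested genes, gave a p of 0.05 or less and a change of 2-fold or more. Under ET-3, 4 of the 41 tested were called higher and 18 lower than in DMSO, where 6.62% and 14.9% of all tested genes were called. Under NT, 4 were called higher and 16 lower, where 7.3% and 13.2% of all tested genes were called. These counts include genes that passed the filter only through their highest group. Under both ligands these were Mmp10 among the higher and Adamts17, Adamtsl2 and Mmp28 among the lower. Counting the 2 libraries of each ligand as 1 sample left 1 higher and 14 lower under ET-3, where 3.33% and 11.9% of all tested genes were called, and 1 and 11 under NT, where 3.4% and 10.4% were. In that count Adamts8, Adamts14 and Mmp10 were no longer called higher, with adjusted p-values of 0.0524, 0.0685 and 0.117 under ET-3 and of 0.0504, 0.079 and 0.185 under NT. Adamts20, Mmp19 and Mmp28 were no longer called lower under either ligand, nor Adamtsl3 under ET-3, nor Adamts9 and Mmp14 under NT. The median log2 fold change of the 41 tested was -0.84 under ET-3 and -0.53 under NT, beside -0.01 for all tested genes in both comparisons. No gene of the 53 was called between NT and ET-3, where 0.0503% of all tested genes were called higher and 0.0287% lower under NT. At an unadjusted p under 0.05, 8 of the 41 differed between the ligands, as did 19.9% of all tested genes.

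**Figure D1:**
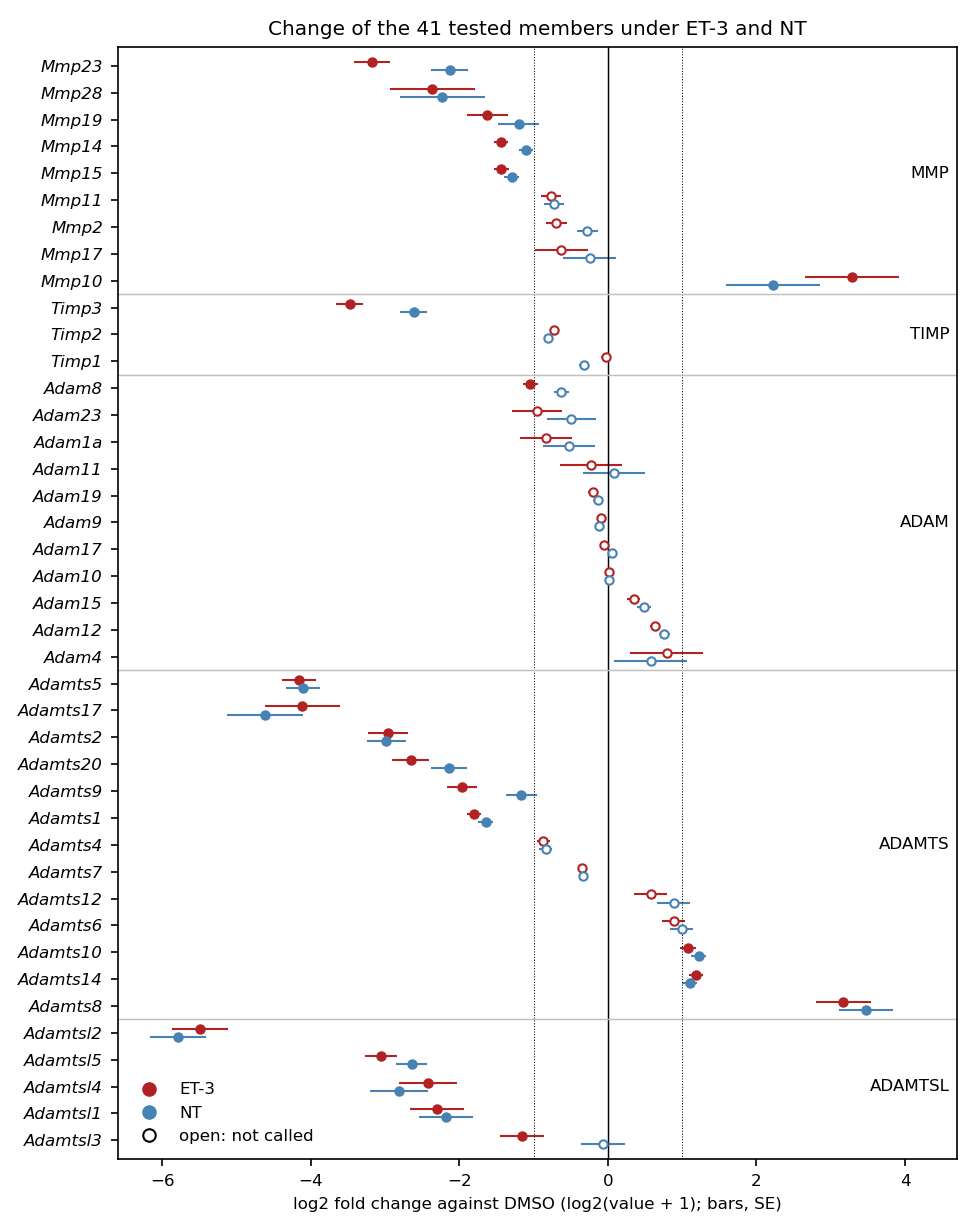
Log2 fold change against DMSO on the scale of log2(value + 1), with its standard error, for the 41 tested genes under ET-3 (red) and NT (blue), grouped by subfamily. Filled points passed the adjusted p and the 2-fold threshold (dotted lines), and all 5 ADAMTS-like genes lie below 0, from -5.49 to -1.16 under ET-3.

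Among the inhibitors, Timp3 fell steeply, Timp2 was lower by under 2-fold, and Timp1 was near its control level under ET-3. Timp3, which unlike the others binds to the matrix and also blocks ADAM17, had values of 579 and 510 in DMSO, 39 and 59 in ET-3, and 98 and 79 in NT. Every treated library lay far under both controls, and the NT libraries lay above the ET-3 libraries. ET-3 lowered it by a log2 fold change of -3.47 ± 0.18 (SE, n = 2 libraries per group, adjusted p = 1.35e-07, limma) and NT by -2.61 ± 0.18 (adjusted p = 1.05e-06), or 11.1-fold and 6.15-fold lower as means. Timp3 lies on GRCm38 at chr10:86300372-86349506, and 21.3% of its exonic bases are also exon of Syn3 on the opposite strand, which was at 8 or less in every library. Timp2, which also takes part in activating pro-MMP2 at the cell surface, read 1572 and 1762 in DMSO, 1015 and 1004 in ET-3, and 959 and 947 in NT. The groups did not overlap, and the log2 fold changes of -0.72 and -0.80 (adjusted p = 1.81e-06 and 8.99e-07) stayed under the 2-fold threshold. Timp1, an inducible inhibitor, was at 444 and 464 in DMSO, 458 and 432 in ET-3, and 375 and 351 in NT. The ET-3 values overlapped those of DMSO, and the NT values lay under both, with a log2 fold change of -0.32 ± 0.06 (adjusted p = 0.00101). Timp4 was at 0 in both DMSO libraries, at 0 and 1 in ET-3, and at 3 and 1 in NT.

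The composition of the TIMP pool shifted with these values. Per kb, Timp1 made up 51.3% and 50.4% of the summed TIMP level in DMSO, 66.0% and 64.7% in ET-3, and 62.0% and 61.0% in NT. Timp3 made up 7.30% and 6.04% in DMSO, 0.613% and 0.964% in ET-3, and 1.77% and 1.5% in NT.

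The membrane-type MMPs were led by Mmp14 and Mmp15, and both fell under each ligand. Mmp14, which encodes MT1-MMP, the pericellular collagenase and activator of pro-MMP2, had values of 485 and 582 in DMSO, 183 and 207 in ET-3, and 251 and 244 in NT. The 3 groups were separate, with ET-3 lowest. On the log2 scale its change was -1.44 ± 0.09 (adjusted p = 5.85e-07, limma) with ET-3 and -1.10 with NT. The NT call was lost without the second DMSO library, where the log2 fold change was -0.97. Mmp15, or MT2-MMP, read 411 and 392 in DMSO, 164 and 133 in ET-3, and 166 and 160 in NT. All 4 treated libraries lay under the controls, by log2 fold changes of -1.44 and -1.30, and the ligands overlapped. Mmp17, a membrane MMP held by a lipid anchor, was at 7 to 14 and was not called. Mmp16 and Mmp24 reached at most 2 and 4.

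Mmp2, the gelatinase that Mmp14 activates, differed less than Mmp14. It read 91 and 101 in DMSO, 60 and 58 in ET-3, and 75 and 83 in NT. The 3 groups did not overlap. The log2 fold change of -0.69 ± 0.14 (adjusted p = 0.00181) under ET-3 was under 2-fold, and that of -0.28 under NT did not pass (adjusted p = 0.117). Mmp9, the other gelatinase, was at 1 and 0 in DMSO, 1 and 1 in ET-3, and 9 and 2 in NT. It was too low for the test, and the NT value rested on 14 reads against 1, a ratio of 10.8 with a 95% counting interval of 1.64 to 457.

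Mmp23, Mmp28 and Mmp19, which belong to no classical substrate class, also fell. Mmp23, a membrane protein with a domain that resembles a potassium channel toxin, read 104 and 129 in DMSO, 11 and 13 in ET-3, and 30 and 22 in NT. The NT libraries lay between the others. Log2 fold changes were -3.17 ± 0.24 (adjusted p = 1.96e-06) with ET-3 and -2.13 ± 0.24 (adjusted p = 3.58e-05) with NT. Mmp28, or epilysin, had 32 and 11 in DMSO, 2 and 4 in ET-3, and 5 and 2 in NT. The DMSO libraries were far apart, and both lay above every treated library. Its log2 fold changes were -2.36 ± 0.57 (adjusted p = 0.00451) under ET-3 and -2.23 under NT. Mmp28 passed the filter only through DMSO, where it was highest, so this p-value is no independent support. It dropped under the filter without the first DMSO library. The call was lost without the first ET-3 library (log2 fold change -1.99, adjusted p = 0.0688) under ET-3, and without the second NT library (-1.73, adjusted p = 0.0847) under NT. Mmp19 read 50 and 40 in DMSO, 12 and 16 in ET-3, and 17 and 21 in NT, with log2 fold changes of -1.62 and -1.20. Of its exonic bases, 22.3% are also exon of Tmem198b on the opposite strand, which read 183 and 196 in DMSO and 85 to 101 in the treated libraries. The sources differ on whether the library kit kept the strand, so reads of such pairs may not have been told apart.

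The stromelysins Mmp3 and Mmp10 and the collagenase Mmp13 lie in 1 cluster on chromosome 9, and their low values went different ways. Mmp10, or stromelysin 2, read 2 and 0 in DMSO, 12 and 21 in ET-3, and 4 and 12 in NT. Every treated library lay above both controls, and the ligands overlapped. It rose by a log2 fold change of 3.29 ± 0.63 (adjusted p = 0.00116, limma) with ET-3 and 2.22 ± 0.63 (adjusted p = 0.0115) with NT. Mmp10 passed the filter only through ET-3, where it was highest, so these p-values are no independent support. The ET-3 value rested on 29 reads against 2 in DMSO, a ratio of 15.6 with a counting interval of 3.95 to 135. The NT call was lost without the second DMSO library (log2 fold change 1.43, adjusted p = 0.163) and without the second NT library (1.53, adjusted p = 0.145). Mmp13, or collagenase 3, had 11 and 9 in DMSO, 1 and 1 in ET-3, and 3 and 0 in NT. All treated values lay under the controls, and it was too low for the test. The ET-3 ratio was 8.82-fold lower, with an interval of 2.13 to 78.1. Mmp3, or stromelysin 1, lies 46.4 kb before Mmp10 with no protein-coding gene between them, and was at 0 in 5 libraries and at 2 in the other one. Mmp11, a stromelysin on chromosome 10, read 147 and 188 in DMSO and 93 to 102 in the treated libraries, with log2 fold changes of -0.77 and -0.72 that stayed under 2-fold.

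These promoter sequences are shown because the genes of the chromosome 9 cluster share 2 short motifs before their start sites while their levels differ. The letters are from RefSeq on GRCm38.p6, 5′ to 3′ on the plus strand, and end at or just before the annotated start. Capitals mark TGANTCA, which AP-1 binds, and TATAAA. The intervals are chr9:7272469-7272513 for Mmp13, chr9:7445766-7445821 for Mmp3 and chr9:7502269-7502341 for Mmp10.
Mmp13: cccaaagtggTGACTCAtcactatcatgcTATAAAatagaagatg
Mmp3: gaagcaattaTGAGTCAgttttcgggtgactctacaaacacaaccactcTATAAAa
Mmp10: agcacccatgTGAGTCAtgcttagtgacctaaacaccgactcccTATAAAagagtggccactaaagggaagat
RefSeq promoters of 300 bases, 250 before and 50 after the start, were matched for 34 of the 53 genes, in 37 windows. TGANTCA was in 4 of these 37 windows, those of Mmp3, Mmp10, Mmp13 and Adam19, and in 7.81% of all 32851 promoters. TATAAA on either strand was in 5 of the 37 and in 13.6% of all promoters. A match of letters describes the sequence and shows no binding.

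**Figure D2:**
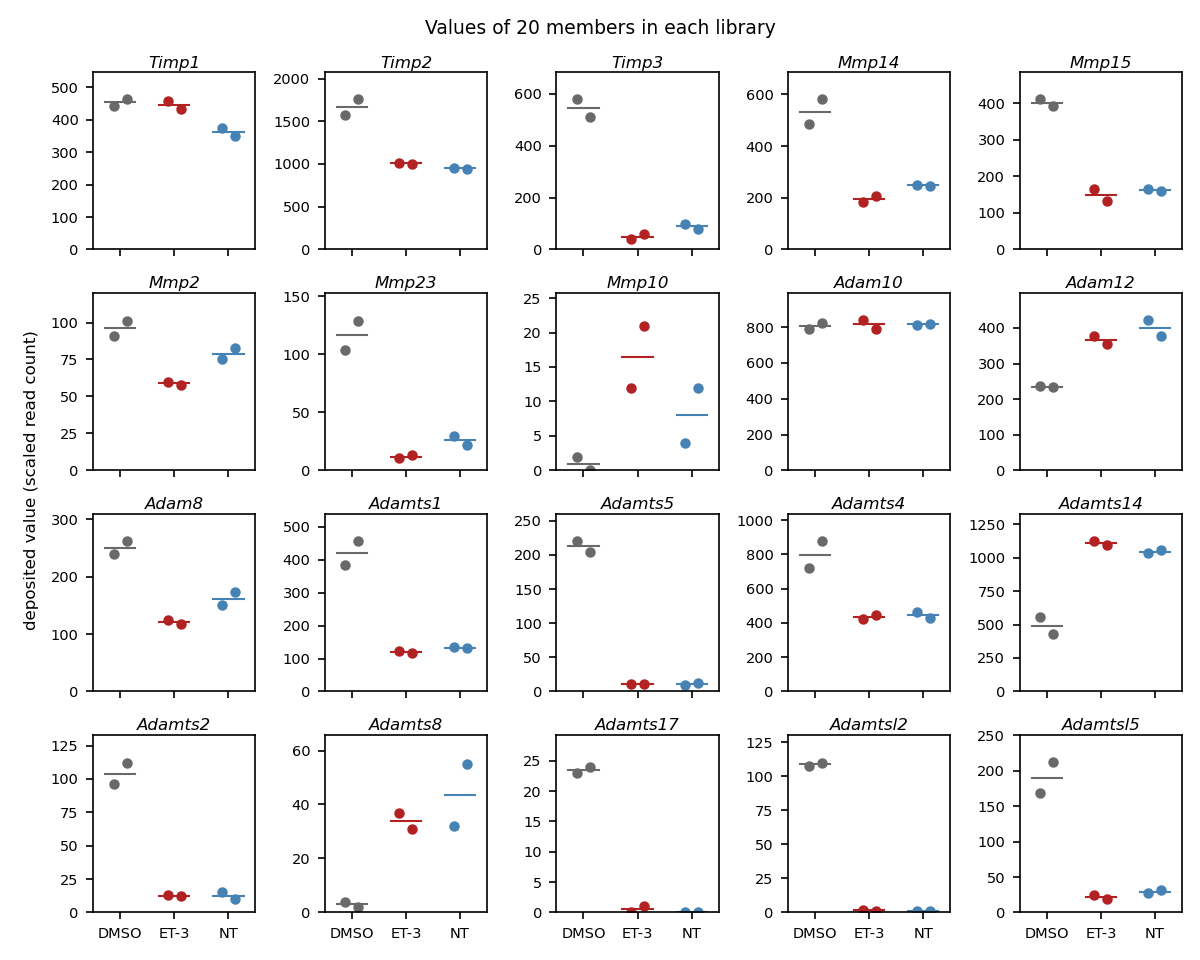
Deposited value (scaled read count) of 20 genes in each of the 6 libraries, with a bar at the mean of each group. Adamts5, Adamtsl2 and Adamts17 are near 0 with both ligands beside DMSO, and Timp3 is far under DMSO at 39 to 98. Adam10 lies at 788 to 840 in all 6 libraries, and Adamts14 and Adamts8 are higher with both ligands.

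Among the ADAMs, Adam10 and Adam17 lay within narrow limits, whereas Adam8, Adam12 and Adam15 differed more. Adam10, which cuts Notch and its ligands, read 788 and 823 in DMSO, 840 and 791 in ET-3, and 814 and 820 in NT. The 3 groups overlapped, and the log2 fold change was 0.02 ± 0.05 under either ligand (adjusted p = 0.772 and 0.729). Adam17, the sheddase of TNF and of EGF receptor ligands, read 662 and 698 in DMSO, 673 and 643 in ET-3, and 693 and 720 in NT. Its log2 fold changes were -0.05 and 0.06 (SE 0.05). Adam9 and Adam19 read 765 to 867 and 763 to 926 over the 6 libraries. They were not called, and Adam19 had a log2 fold change of -0.20 (adjusted p = 0.0132) under ET-3.

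Adam12, an ADAM of regenerating muscle that is linked to myoblast fusion, was higher in every treated library. It read 237 and 233 in DMSO, 377 and 356 in ET-3, and 422 and 378 in NT. Log2 fold changes of 0.64 and 0.76 (SE 0.07, adjusted p = 2.41e-05 and 7.18e-06) were below the 2-fold threshold. Adam15 read 191 and 222 in DMSO, 245 and 280 in ET-3, and 292 and 286 in NT, also under 2-fold. Antisense exons cover 20.6% of its exonic bases, and the antisense gene was at 5 or less.

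Adam8, a sheddase best known from white blood cells, was the 1 called ADAM. It read 239 and 262 in DMSO, 125 and 117 in ET-3, and 151 and 173 in NT. The 3 groups were separate, with ET-3 lowest. ET-3 gave a log2 fold change of -1.04 ± 0.10 (adjusted p = 9.22e-06, limma) and NT one of -0.63. The ET-3 value lay close to the 2-fold threshold, at -0.98 without the second DMSO library and -0.996 without the second ET-3 library, and the call was lost in both. The 3 macrophage markers went different ways. Csf1r read 6 and 13 in DMSO and 4 to 5 with the ligands. Cd68 read 15 and 14 and then 16 to 41, and Mrc1 6 and 9 and then 11 to 17. Any share of such cells in the Adam8 values was not tested.

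The ADAMs without protease activity and those of the testis were low. Adam23, a binding partner of integrins, read 33 and 45 in DMSO and 15 to 35 in the treated libraries, with a log2 fold change of -0.96 under ET-3 (adjusted p = 0.0292). Adam11, Adam22 and Adam32 reached at most 8, 5 and 2. Of the testis genes, Adam1a read 28 and 32 in DMSO and 11 to 24 with the ligands and was not called, and 63.7% of its exonic bases are shared with Gm42878 on the same strand. Adam4 was at 2 to 8, and Adam21 was at 0 in both DMSO libraries, 4 and 4 in ET-3, and 0 and 1 in NT. Over all 14 ADAMs, the summed level per kb was 708 and 716 in DMSO, 683 and 665 in ET-3, and 695 and 705 in NT.

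Of the 7 ADAMTS that cleave proteoglycans, 6 were tested, and 4 of these were called lower and 1 higher under each ligand. Of all tested genes, 14.9% were called lower and 6.62% higher under ET-3, and 13.2% and 7.3% under NT. Adamts5, the aggrecanase that also cleaves versican, read 220 and 205 in DMSO, 11 and 11 in ET-3, and 10 and 13 in NT. The treated libraries were alike and far under the controls. Log2 fold changes were -4.15 ± 0.23 (adjusted p = 1.93e-07, limma) with ET-3 and -4.10 ± 0.23 (adjusted p = 2.29e-07) with NT, or 19.3-fold and 18.5-fold lower as means. Its neighbour Adamts1 lies 53.1 kb away on chromosome 16, in the same orientation, with no protein-coding gene between them. Adamts1, a versican-cleaving enzyme with low aggrecanase activity, read 383 and 457 in DMSO, 123 and 116 in ET-3, and 135 and 131 in NT. Its log2 fold changes were -1.80 and -1.65. Adamts1 lies at chr16:85793827-85803113 and Adamts5 at chr16:85856173-85901828, both on the minus strand of GRCm38.

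Adamts20 and Adamts9, a pair of closely related versican-cleaving enzymes, fell as well. Adamts20 read 189 and 117 in DMSO, 26 and 20 in ET-3, and 33 and 33 in NT. The DMSO libraries differed between themselves, and both lay above every treated library. Log2 fold changes were -2.65 ± 0.25 (adjusted p = 7.5e-06) and -2.14. Adamts9 read 74 and 88 in DMSO, 19 and 21 in ET-3, and 35 and 36 in NT, with log2 fold changes of -1.96 and -1.16. Exons of A730049H05Rik on the other strand overlap 9.18% of Adamts9, and that gene went from 12 and 17 to between 0 and 1. Adamts4, the other main aggrecanase, had the highest level of the group. It read 719 and 879 in DMSO, 423 and 446 in ET-3, and 461 and 429 in NT, and its log2 fold changes of -0.87 and -0.84 (adjusted p = 1.12e-05 and 1.58e-05) stayed under 2-fold.

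Adamts8 and Adamts15 lie next to each other on chromosome 9, 20.1 kb apart on opposite strands, and their values went opposite ways. Adamts8, at chr9:30942562-30963838, read 4 and 2 in DMSO, 37 and 31 in ET-3, and 32 and 55 in NT. Every treated library was above both controls, and the ligands overlapped. It rose by a log2 fold change of 3.17 ± 0.37 (adjusted p = 3.5e-05, limma) with ET-3 and 3.47 ± 0.37 (adjusted p = 1.95e-05) with NT. Adamts15, at chr9:30899155-30922452, read 8 and 7 in DMSO, 1 and 0 in ET-3, and 0 and 0 in NT. It was too low for the test. Set against a floor of 3 reads over the group, its NT level was 6.05-fold lower, which leaves out the counting error of the DMSO reads. The ET-3 ratio was 13-fold lower with a counting interval of 1.98 to 550.

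The procollagen N-proteinases, which remove the amino-terminal propeptide of fibrillar procollagens, moved in opposite directions. Adamts14 rose, with 553 and 427 in DMSO, 1125 and 1097 in ET-3, and 1031 and 1054 in NT. All treated libraries were about alike and above both controls. ET-3 raised it by a log2 fold change of 1.19 ± 0.09 (adjusted p = 2.48e-06, limma) and NT by 1.10 ± 0.09 (adjusted p = 4.72e-06). Without the second DMSO library the NT value was 0.91, under the threshold. Adamts2 fell, with 96 and 112 in DMSO, 13 and 12 in ET-3, and 15 and 10 in NT, log2 fold changes of -2.96 ± 0.27 (adjusted p = 6.18e-06) and -2.98 ± 0.27, and 8.32-fold lower as means under either ligand. Per kb, Adamts2 held 8.81% and 12.7% of the summed level of Adamts2 and Adamts14 in DMSO, and 0.525% to 0.803% in the treated libraries. Adamts3, the other member of this class, was at 0 in DMSO, 4 and 8 in ET-3, and 3 and 2 in NT. Set against the same floor, its ET-3 level was 3.59-fold higher, a value that leaves out the counting error of the ET-3 reads.

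The other ADAMTS moved both ways. Adamts10, which binds fibrillin microfibrils, rose from 103 and 121 in DMSO to 228 and 246 in ET-3 and 245 and 280 in NT. The log2 fold changes were 1.08 ± 0.11 (adjusted p = 1.03e-05) and 1.22 ± 0.11 (adjusted p = 4.51e-06). It was also called with the libraries of each ligand counted as 1 sample, under ET-3 with an adjusted p just below the threshold. Without the first DMSO library the ET-3 value was 0.96, under the threshold. Adamts6, its nearest relative, read 242 and 158 in DMSO and 350 to 393 in the treated libraries, with log2 fold changes of 0.89 and 0.99 that missed 2-fold. Adamts17 fell, with 23 and 24 in DMSO, 0 and 1 in ET-3, and 0 and 0 in NT. The ET-3 level was 40.9-fold lower with a counting interval of 6.96 to 1650, and the NT level at least 19.0-fold lower. Both calls were lost without the second DMSO library, where its mean dropped under the filter. Adamts7 read 466 and 441 in DMSO and 350 to 365 with the ligands, and Adamts12 read 29 and 34 and then 40 to 63, all under 2-fold. Adamts16 was at 2 in both DMSO libraries and at 0 in the treated ones.

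The ADAMTS-like genes, several of whose products bind fibrillin microfibrils, were lower with 1 exception under NT. Under ET-3, 5 of 5 were called lower, and under NT 4 of 5, where 14.9% and 13.2% of all tested genes were. These counts include Adamtsl2, which passed the filter only through DMSO, where it was highest. Adamtsl2, which binds fibrillin and a latent TGF-beta binding protein, read 108 and 110 in DMSO, 2 and 1 in ET-3, and 1 and 1 in NT. It fell 63.8-fold under ET-3 with a counting interval of 21.5 to 312 and 134-fold under NT with an interval of 36.5 to 1110. Adamtsl5 read 168 and 212 in DMSO, 25 and 19 in ET-3, and 27 and 32 in NT, with log2 fold changes of -3.06 ± 0.21 (adjusted p = 9.5e-07, limma) and -2.64 ± 0.21 (adjusted p = 2.84e-06). Adamtsl4, which is needed for the fibres that hold the lens, had 31 and 42 in DMSO, 5 and 7 in ET-3, and 3 and 6 in NT, with log2 fold changes of -2.42 ± 0.39 (adjusted p = 0.000374) and -2.81 ± 0.39 (adjusted p = 0.000141). Adamtsl1 read 37 and 44 in DMSO, 6 and 9 in ET-3, and 6 and 11 in NT, with log2 fold changes of -2.31 and -2.17.

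Adamtsl3 differed from the others in its values under NT. It read 52 and 29 in DMSO, 15 and 19 in ET-3, and 36 and 38 in NT. The NT values lay between those of the DMSO libraries. With ET-3 the log2 fold change was -1.16 (adjusted p = 0.00645), and with NT it was -0.07 (adjusted p = 0.851). The ET-3 call was lost without the first DMSO library (-0.75, adjusted p = 0.061) and without the first ET-3 library (-0.995, adjusted p = 0.0709), and the difference between NT and ET-3 did not pass the test (log2 fold change 1.09, adjusted p = 0.0835).

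Stretches before the start sites of 4 lower genes are shown because they hold CAGCTG, an E-box of the kind bound by Myod1 and Myog. The letters are from RefSeq on GRCm38.p6, 5′ to 3′ on the strand of the gene, with CAGCTG in capitals. The intervals are chr2:27079330-27079376 on the plus strand for Adamtsl2, chr10:80348633-80348692 on the minus strand for Adamtsl5, chr11:50602050-50602082 on the plus strand for Adamts2 and chr6:92943661-92943720 on the minus strand for Adamts9.
Adamtsl2: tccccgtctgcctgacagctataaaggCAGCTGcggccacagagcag
Adamtsl5: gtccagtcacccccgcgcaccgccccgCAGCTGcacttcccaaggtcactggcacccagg
Adamts2: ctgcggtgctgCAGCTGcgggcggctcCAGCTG
Adamts9: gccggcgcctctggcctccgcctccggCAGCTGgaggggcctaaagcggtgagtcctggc
CAGCTG, which reads the same on both strands, was in 10 of the 37 windows (27%) and in 16.3% of all promoters. Of the 16 windows of genes called lower under ET-3, 5 held it, those just shown and that of Adamts17. It was also in the windows of Adam17, Adam19, Adamts12 and Timp2, which were not called, and of Timp4, which was not tested. Timp2 and Adamts12 under both ligands and Adam19 under ET-3 passed the adjusted p with changes of less than 2-fold. For these genes too a match describes only the letters.

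**Figure D3:**
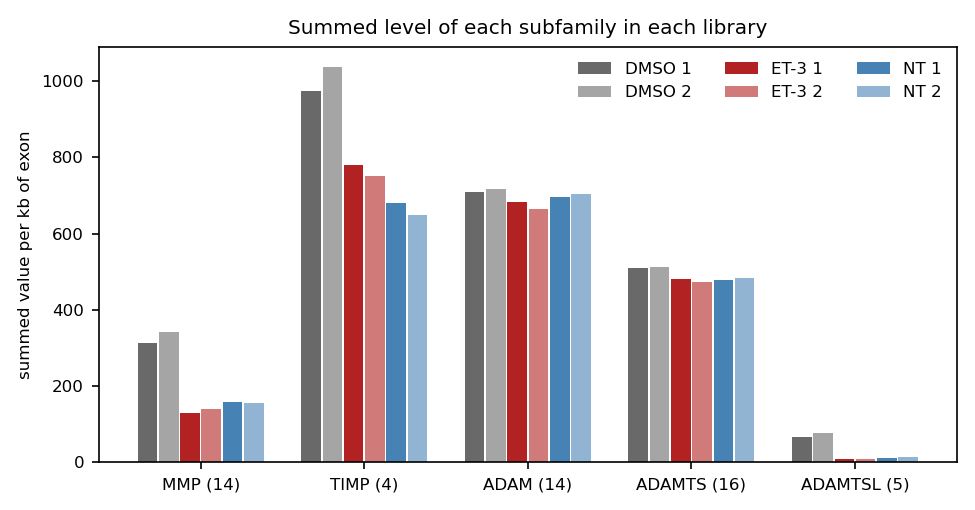
Summed value per kb of exon for each subfamily (number of genes in parentheses) in each of the 6 libraries. The MMP bars stand at 312 and 343 in DMSO and at 131 to 159 with the ligands, whereas the ADAM bars stand between 665 and 716 throughout.

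Summed over genes, the enzyme and inhibitor levels shifted by different amounts. The summed MMP level per kb was 312 and 343 in DMSO, 131 and 141 in ET-3, and 159 and 156 in NT. For the TIMPs it was 975 and 1037 in DMSO, 781 and 752 in ET-3, and 681 and 648 in NT. The ratio of the TIMP to the MMP level within a library was therefore 3.12 and 3.02 in DMSO, 5.98 and 5.35 in ET-3, and 4.30 and 4.15 in NT. The ADAMTS sum was 510 and 514 in DMSO and 474 to 484 with the ligands. Within it Adamts14 held 20.9% and 16.0% in DMSO and 41.4% to 44.9% with the ligands, and Adamts4 held 29.3% and 35.6% and then 18.2% to 20.02%. The 7 proteoglycan-cleaving ADAMTS together had 270 and 308 in DMSO and 124 to 135 with the ligands. These sums are of transcript levels and have no test.

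**Figure D4:**
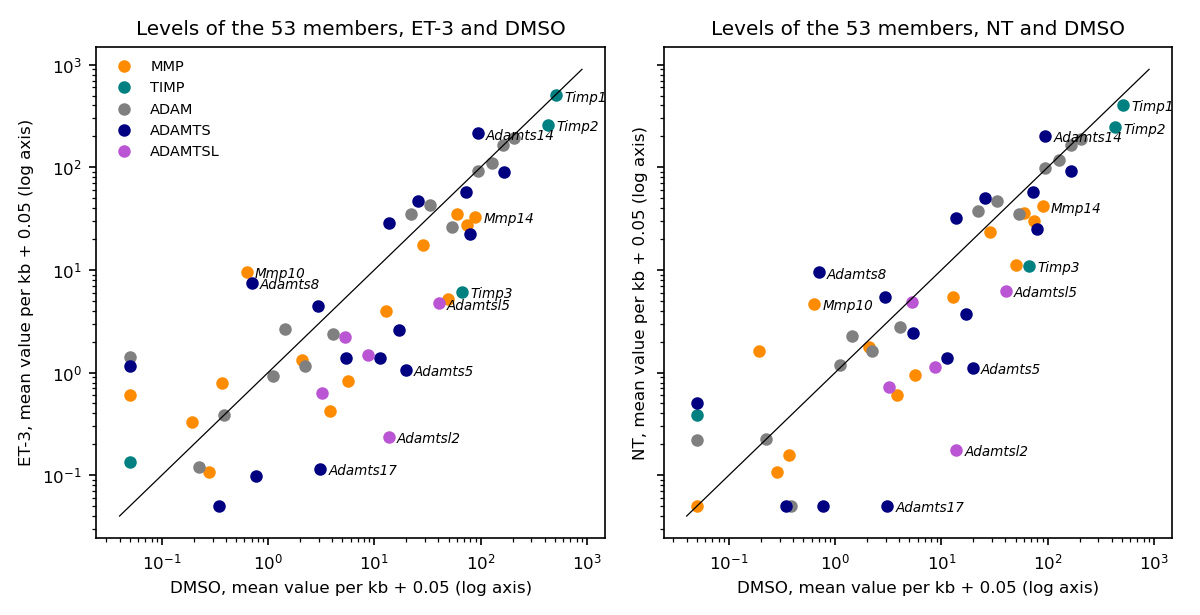
Mean value per kb of exon, with 0.05 added, of all 53 genes under ET-3 (left) and NT (right) against DMSO, both on log axes, with the line of equal level. Adamtsl2, Adamts5 and Adamts17 lie far below the line in both panels, Adamts8, Mmp10 and Adamts14 above it, and Timp1 close to it.

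NT and ET-3 were also compared directly. Timp3 was higher under NT by a log2 fold change of 0.86 ± 0.18 (adjusted p = 0.044, limma) and Timp1 was lower by -0.29 ± 0.06 (adjusted p = 0.0425), and both were under 2-fold. Mmp23 was 1.04 ± 0.24 higher under NT on the log2 scale, and its adjusted p of 0.0552 missed the threshold. For Adam8 the difference was 0.42 (adjusted p = 0.0587), for Adamts9 0.80 (0.0695) and for Mmp14 0.34 (0.0814), all higher under NT. Adam8 and Adamtsl3 were called under ET-3 and not under NT, and neither was shown to differ between the ligands.

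Proteins that work with these enzymes were taken from lists of related genes. Their counts stand beside 6.62% of all tested genes called higher and 14.9% lower under ET-3. Under NT these shares were 7.3% and 13.2%. The lists are short, and no count of a list was tested against these shares. Of 7 tested genes of plasminogen activation, the system that activates several MMPs, 1 was called higher and 3 lower under each ligand. Plat, the tissue plasminogen activator, went from 150 and 180 in DMSO to between 7 and 11, with log2 fold changes of -4.08 and -4.05. Serpinb2, an inhibitor of plasminogen activators, had -3.18 and -2.71, and Plgrkt, a plasminogen receptor, -1.27 and -1.33. Plaur, the receptor of urokinase, rose by 1.33 and 1.11. Of 9 other metalloproteinases and their regulators, none was called higher and 2 were called lower, Pcolce, the enhancer of procollagen C-proteinase (-2.54 and -2.23), and Spock2, a matrix proteoglycan (-2.38 and -2.12).

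Of 4 proprotein convertases, which remove the propeptide of many of these enzymes, 1 was called higher under ET-3 and 2 under NT. Pcsk6 went from 59 and 49 in DMSO to between 185 and 229, with log2 fold changes of 1.80 and 2.03. Pcsk5, named after its values were seen, was called under NT alone (2.27), with 1.91 and an adjusted p of 0.0522 under ET-3. Furin had -0.07 and -0.14. Of 8 tested partners that carry ADAM10 or ADAM17 to the surface, none was called higher, and 3 were called lower under ET-3 and 2 under NT. Frmd8 and Tspan5, named after their values were seen, were higher by less than 2-fold, with log2 fold changes of 0.74 and 0.63 (adjusted p = 1.06e-06 and 3.88e-06) and of 0.36 and 0.38. Tspan14 and Rhbdf1, also named after their values were seen, were lower by less than 2-fold. Tspan14 had -0.99 and -0.94, Rhbdf1 had -0.80 and -0.78, and Rhbdf2 had -0.005 and 0.16. Tspan33 went from 591 and 596 to between 66 and 77, with log2 fold changes of -3.13 and -2.98. Tspan17 had -1.23 and -1.07, and Tspan15, named after its values were seen, had -1.01 and -0.93. Their enzymes Adam10 and Adam17 were within 0.06 of 0 on the log2 scale in both comparisons.

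Of 10 ligands that ADAMs shed, 4 were higher and 1 lower under ET-3, and 5 and 1 under NT. Kitl, or stem cell factor, went from 25 in both DMSO libraries to between 140 and 188, with log2 fold changes of 2.48 and 2.75. Tgfa had 2.26 and 2.40, Areg 1.32 and 1.34, and Cx3cl1 1.09 and 1.19. Ereg, named after its values were seen, was called under NT alone (1.27). Nrg1, or neuregulin 1, fell, with -2.76 and -2.81 on the log2 scale. Of the 2 tested genes of proteoglycans and hyaluronan, Vcan, which encodes the versican that Adamts1, Adamts5, Adamts9 and Adamts20 cleave, had -0.10 and -0.01 and was not called. Has2, a hyaluronan synthase, fell with -2.44 and -2.36.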

How the data were processed

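Values were taken from the deposited table of the 6 libraries, 2 per group, assigned by their labels. The authors used STAR to align single-end reads to mm10, the GRCm38 mouse genome (version 2.7.7a per the submitters' processing notes, which also name Trimmomatic 0.38, featureCounts 1.6.5 and DESeq2 1.30.0) and counted reads on exons. The study's text names another trimming tool and another library kit than the labels. The deposited values are a read signal, whole numbers that correspond to counts times 1 factor per library (0.781 to 1.19); the authors' text does not describe the scaling. They summed to between 4214458 and 4600575 per library. The study's methods name an estimate of the duplication rate, and no removal of duplicate reads is given in the sources used here.

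Groups were compared with limma 3.58.1 under R 4.3.3 (lmFit, contrasts, eBayes with a mean-variance trend) on log2(value + 1), so fold changes of low genes are understated. All 6 libraries entered 1 fit without a block, after removal of genes whose mean value was below 5. Benjamini-Hochberg adjustment covered the 13921 tested genes. Genes were called at an adjusted p of 0.05 or less and a log2 fold change of 1 or more in either direction. Ratios with 3 or fewer reads in a group carry exact 95% intervals from the recovered reads, and a group at 0 was set to a floor of 3 reads. The intervals cover counting error only, and ratios against the floor leave out the counting error of the other group. Positions and exonic lengths came from GENCODE vM21, matched by Ensembl identifier for all 53 genes. Promoters came from RefSeq on GRCm38.p6.

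The genes and lists were chosen with earlier results of these data known. By rule, values in every library are given for called genes, the 5 highest per kb, and Mmp2, Mmp9, Mmp14, the TIMPs, Adam10, Adam12 and Adam17, and full statistics for up to 3 called genes per subfamily and direction. Genes of related lists are named where called under both ligands. The fit was tested on simulated data. Alternatives covered scaling, filter, pseudocount, voom weights, a replicate block, 2 groups alone, treated pairs as 1 sample, no fold threshold, and each library left out. Python 3.11.15 with pandas 2.3.3 and matplotlib 3.10.9 prepared tables and plots.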

Additional observations from a re-analysis of the deposited data

Results flagged for a closer look

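For 2 of the 41 tested genes the test of NT against ET-3 itself passed the adjusted p, both by less than 2-fold. Of all 13921 tested genes, 90 passed it as higher and 285 as lower under NT. Timp3 was higher under NT, with values of 98 and 79 against 39 and 59 and a log2 fold change of 0.86 (adjusted p = 0.044, limma). Over the alternatives it ranged from 0.57 to 1.15, with an adjusted p of 0.015 to 0.712. Timp1 was lower under NT, with 375 and 351 against 458 and 432 and a log2 fold change of -0.29 (adjusted p = 0.0425). Over the alternatives it ranged from -0.34 to -0.25, with an adjusted p of 0.0174 to 0.712. In both genes the 2 NT libraries did not overlap the 2 ET-3 libraries.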

How the results depend on the processing

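Of 699 alternative values for the 42 called changes, 669 kept direction and call, 30 kept the direction and lost the call, and 0 changed sign. Calls of genes that an alternative dropped under the filter were lost too, but these genes have no value in this tally. With a mean of at least 20 they were Mmp10, Adamts17, Adamtsl1, Adamtsl4 and Mmp28 under both ligands. The tally includes the setting without a fold threshold, which repeats the main fit and so keeps every call by construction. Against 4 genes higher under either ligand, counting each treated pair as 1 sample gave 1 under ET-3 and 1 under NT (Adamts10 in both), and no fold threshold gave 8 and 8. Leaving out 1 library gave 2 to 5 higher under NT, with 2 (Adamts8 and Adamts10) without the second DMSO library. Between NT and ET-3, against none called, Mmp23 made 1 higher with library totals and 1 with the upper quartile, Mmp23 and Adamtsl3 made 2 with a mean of at least 20, and no fold threshold gave 1 higher (Timp3) and 1 lower (Timp1). Library totals and voom weights lost Adam8 under ET-3 (log2 fold change -0.95 and -0.96) and Mmp14 under NT (-0.99 and -0.99). The cause was not tested, except that genes lost by the filter were not fitted. The labels number the replicates alike in each group, and deviations of same-numbered libraries correlated at -0.01, -0.07 and -0.02. The ET-3 and the NT libraries differed within their group by less than sampling noise. These correlations therefore cannot show whether the numbers pair the libraries. With the replicate block the counts were again 4 higher and 18 lower under ET-3, 4 and 16 under NT, and 0 and 0 between the ligands. The depth leaves 12 of the 53 genes too low to test, and ratios from a few reads are wide.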
